A study of Mus musculus with 208 samples.

Results

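The genes described here are 8 of the 46403 genes counted in each region: the cannabinoid receptor gene Cnr1 and 7 genes for enzymes that make or break down its lipid ligands, taken by symbol. They are Dagla and Daglb, Mgll, Abhd6 and Abhd12, Napepld and Faah. All 8 passed the filter on low counts (a total above 10) in every region. Nuclear RNA was measured in NeuN+ (neuronal) nuclei sorted from 4 brain regions of adult C57BL/6NTac mice, with 1 library for each animal and region and 71 animals of 18 litters, the litter being read from the first number of each animal's label. Morphine reached the offspring through a minipump in the dam (10 mg/kg per day) and then by injection of the pups (10 mg/kg, postnatal days 1 to 14), with saline in the other litters (MOR or SAL), and at 8 to 12 weeks of age the offspring received LPS, a bacterial cell wall lipid that triggers inflammation, at 2 mg/kg, or saline, 2 h before collection. Groups are named by exposure and then challenge, so that MOR–LPS animals had morphine as pups and LPS as adults. By the label numbers, each litter had 1 exposure, 10 with morphine and 8 with saline. The hypothalamus had 11 SAL–SAL, 12 SAL–LPS, 14 MOR–SAL and 14 MOR–LPS libraries, the hippocampus 13, 14, 12 and 16, the prefrontal cortex (PFC) 10, 10, 12 and 16, and the striatum 13, 15, 8 and 18, in the same order.

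Endocannabinoids are lipid messengers that neurons make on demand and that act mostly backwards across the synapse, on CB1 receptors of the presynaptic terminal. One of them, 2-arachidonoylglycerol, is made by diacylglycerol lipases (Dagla, Daglb) and hydrolysed by monoacylglycerol lipase (Mgll) and the serine hydrolases Abhd6 and Abhd12. The other, anandamide, can be released from membrane precursors by NAPE-PLD (Napepld) and is hydrolysed by fatty acid amide hydrolase (Faah).

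Median depth per library was between 5543589 counts in the hypothalamus and 10849923 in the striatum, and the shallowest library, a hypothalamic SAL–LPS library, held 7673. Of all libraries, 8 held less than 0.5 of their region's median and 9 carried Y-linked counts against the labelled sex. All are in the fits unless stated. Summed neuronal markers had a median of 2032 CPM in hypothalamic SAL–SAL libraries. In that group summed oligodendrocyte markers reached 4601 and 6199 CPM in libraries 9-4 and 4-1, and at most 702.3 in the others. Summed hypothalamic markers (Hcrt, Pmch, Avp, Pomc, Agrp and Sim1) had a median of 43.2 in that group against 5.94 to 11.6 in the other regions. Agrp alone went the other way, with a median over all conditions of 2.99 in the hypothalamus against 4.83 to 7.68 elsewhere. The hypothalamic medians of Avp, Pomc and Pmch were 0.2, 1.16 and 1.32. In the hypothalamus 8 libraries stood apart by markers of cortical excitatory neurons, 6 of them MOR–LPS and the other two SAL–LPS. The hypothalamic table also lists counts for 1480 genes that are at 0 in all other tables, 11.8% of its 12491 genes whose median reached 5 CPM, so that region and table cannot be told apart.

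The members lie on 6 chromosomes of mm10 (GENCODE M21), all as protein-coding genes. Cnr1 is at chr4:33924593-33948831 and Faah at chr4:115967145-116017926, Mgll at chr6:88724412-88828360, Abhd6 at chr14:8002902-8056763, Dagla at chr19:10245265-10304877, Daglb at chr5:143464584-143505942, Napepld at chr5:21662901-21701396 and Abhd12 at chr2:150832493-150904741. Exons of Rac1 on the opposite strand overlap 24.1% of the exonic bases of Daglb, and since the strand setting of the counting is not given in the sources used here, counts of Daglb are uncertain.

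The 250 bases before the RefSeq start site (GRCm38.p6) are shown for the 3 members that passed the test together below, with each CG dinucleotide in capitals.
Mgll (chr6:88724162-88724411, plus strand): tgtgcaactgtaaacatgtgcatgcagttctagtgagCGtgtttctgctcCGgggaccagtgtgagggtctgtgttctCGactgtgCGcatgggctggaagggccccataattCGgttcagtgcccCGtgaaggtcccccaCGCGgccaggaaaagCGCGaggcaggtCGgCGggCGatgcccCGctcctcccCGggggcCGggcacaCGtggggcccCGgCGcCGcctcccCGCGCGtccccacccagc
Faah (chr4:116017925-116018174, minus strand): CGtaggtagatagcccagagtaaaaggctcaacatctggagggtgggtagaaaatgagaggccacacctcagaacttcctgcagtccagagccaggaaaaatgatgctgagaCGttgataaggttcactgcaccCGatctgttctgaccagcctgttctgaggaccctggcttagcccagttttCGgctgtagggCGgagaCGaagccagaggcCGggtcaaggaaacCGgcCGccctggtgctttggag
Abhd6 (chr14:8002638-8002887, plus strand): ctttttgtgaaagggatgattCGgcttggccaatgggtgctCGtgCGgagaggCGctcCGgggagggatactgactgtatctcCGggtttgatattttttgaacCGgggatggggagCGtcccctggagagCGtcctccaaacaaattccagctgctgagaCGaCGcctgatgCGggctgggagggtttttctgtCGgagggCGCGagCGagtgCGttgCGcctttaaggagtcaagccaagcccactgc
Mgll held 23 CG dinucleotides, Abhd6 18 and Faah 9, against a median of 6 over 32851 windows of the same length. The GC box GGGCGG was found on either strand only in Faah of these 3, with 2 matches, and is present in 32.7% of all windows. The E box CACGTG was found once in Mgll and is present in 6.02% of all windows.

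Levels of the members differed most between regions for Mgll. The 47 SAL–SAL libraries came from 15 animals, so regions share animals, and the animal was not a term in the test. In SAL–SAL libraries, in CPM normalized over all regions, Mgll had a median of 16.3 in the hypothalamus (3.80 to 39.0, n = 11), 79.0 in the striatum (31.0 to 147.4, n = 13), 118.2 in hippocampal libraries (43.9 to 187.7, n = 13) and 212.1 in PFC libraries (121.0 to 421.7, n = 10). The hypothalamic and PFC values did not overlap, and the log2 fold change (log2FC) was -3.64 ± 0.29 (SE, edgeR adjusted p = 3.74e-15). The hippocampal and striatal values were not told apart (0.60 ± 0.24, edgeR adjusted p = 0.106). Cnr1 was highest in the striatum, with a median of 170.7 (80.0 to 930.0), against 85.9 for the hippocampus, 74.0 for the PFC and 63.9 for the hypothalamus. Its striatal level exceeded each of the other regions, and the hypothalamus, hippocampus and PFC were not told apart in that test. Faah had medians of 229.0 for the hippocampus, 123.9 for the hypothalamus, 80.5 for the PFC and 48.6 for the striatum, and Napepld of 51.2 in hippocampal and 7.53 in PFC libraries (2.48 ± 0.48, edgeR adjusted p = 0.000343). Dagla was higher in the hippocampus (373.8) and PFC (311.8) than in the striatum (164.6) and hypothalamus (146.1). Abhd6 and Abhd12 were lowest in the hypothalamus, at 49.6 and 103.6. Over all conditions, markers of medium spiny neurons had PFC medians of 609.5 (Rgs9), 68.0 (Ppp1r1b), 42.1 (Adora2a) and 34.4 (Drd1) CPM. Their striatal medians were 577.8, 41.8, 49.5 and 49.1, and their hippocampal medians 47.9, 4.06, 0.237 and 3.19. The part of such nuclei in the PFC values of the members was not tested.

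Of the 8 members, 5 were called (adjusted p under 0.05) between hypothalamus and hippocampus, all lower in the hypothalamus, beside 38.0% of all genes tested. Between hypothalamus and PFC 5 were called (background 40.2%), and 5 between hypothalamus and striatum (36.2%). Between the other regions 4 were called for hippocampus and PFC (13.6%), 6 for hippocampus and striatum (9.26%) and 4 for PFC and striatum (13.1%). Daglb was called in none of the 6 pairs. With a correlation within animals in limma, Napepld between hypothalamus and PFC (adjusted p = 0.192) and Abhd12 between hypothalamus and striatum (adjusted p = 0.0523) lost their call, Faah gained one between hypothalamus and PFC (adjusted p = 0.0129), and no other call changed.

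**Figure D1:**
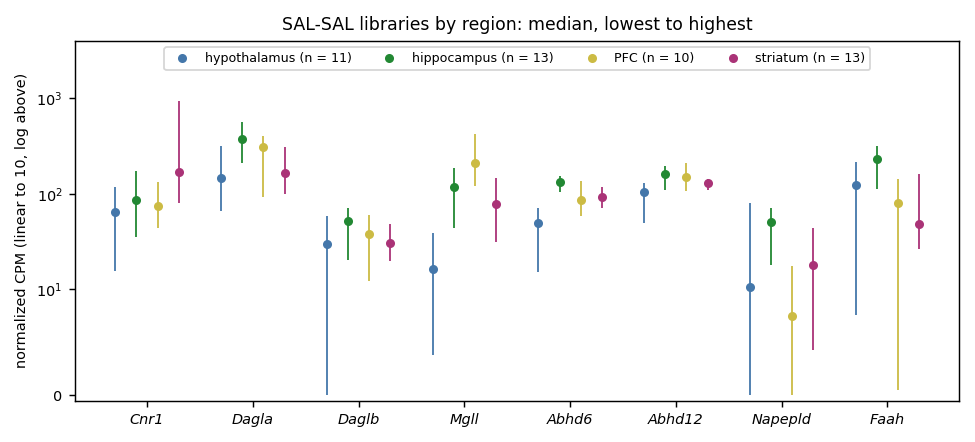
Normalized CPM of the 8 members in SAL–SAL libraries of each region (y axis linear to 10 and logarithmic above). Points are medians and lines run from the lowest to the highest library. The hypothalamic range of Mgll lies below that of the PFC.

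Of the contrasts between conditions within a region, members were called in 2, both in the hypothalamus, namely MOR–LPS against MOR–SAL and the interaction of exposure with challenge. In the hypothalamus, Mgll, Faah and Abhd6 were higher in MOR–LPS than in MOR–SAL libraries, by about the same log2FC.

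Mgll was between 9.12 and 28.7 normalized CPM in MOR–SAL (median 13.6, n = 14) and between 4.69 and 76.6 in MOR–LPS (median 22.3, n = 14). SAL–SAL ran from 4.33 to 46.0 (median 19.5) and SAL–LPS from 0 to 35.3 (median 12.2). The lowest SAL–SAL value was 1 count in a library of 160755 counts, and the 0 came from the library of 7673 counts. The groups overlap, and 11 of 14 MOR–LPS libraries exceeded the MOR–SAL median. The log2FC of MOR–LPS against MOR–SAL was 1.03 ± 0.29 (edgeR adjusted p = 0.0255). The study reported Mgll as higher in MOR–LPS than in SAL–LPS on these libraries, so its direction here is not independent evidence.

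Faah was between 69.6 and 125.1 in MOR–SAL (median 104.8) and between 73.5 and 455.8 in MOR–LPS (median 203.0). SAL–SAL had a median of 146.6 and SAL–LPS of 117.1. MOR–SAL values were close together, while MOR–LPS values spread over both the MOR–SAL range and far above it. The log2FC was 0.98 ± 0.20 (edgeR adjusted p = 0.00227), with 11 of 14 libraries above the MOR–SAL median.

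Abhd6 was between 30.6 and 50.6 in MOR–SAL (median 36.6) and between 32.6 and 152.1 in MOR–LPS (median 69.8). SAL–SAL had a median of 59.5 and SAL–LPS of 55.0, both above MOR–SAL. The log2FC was 0.97 ± 0.19 (edgeR adjusted p = 0.00118), with 13 of 14 libraries above the MOR–SAL median. Dagla (0.62 ± 0.21, edgeR adjusted p = 0.0541) and Napepld (0.81 ± 0.32, edgeR adjusted p = 0.115) did not pass, although Dagla was called in 15 alternatives (0.58 to 1.02), DESeq2 among them (adjusted p = 0.0161), and not in the other 24, and Cnr1 (-0.12 ± 0.17), Daglb (-0.06 ± 0.19) and Abhd12 (0.26 ± 0.15) were nearer to 0.

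**Figure D2:**
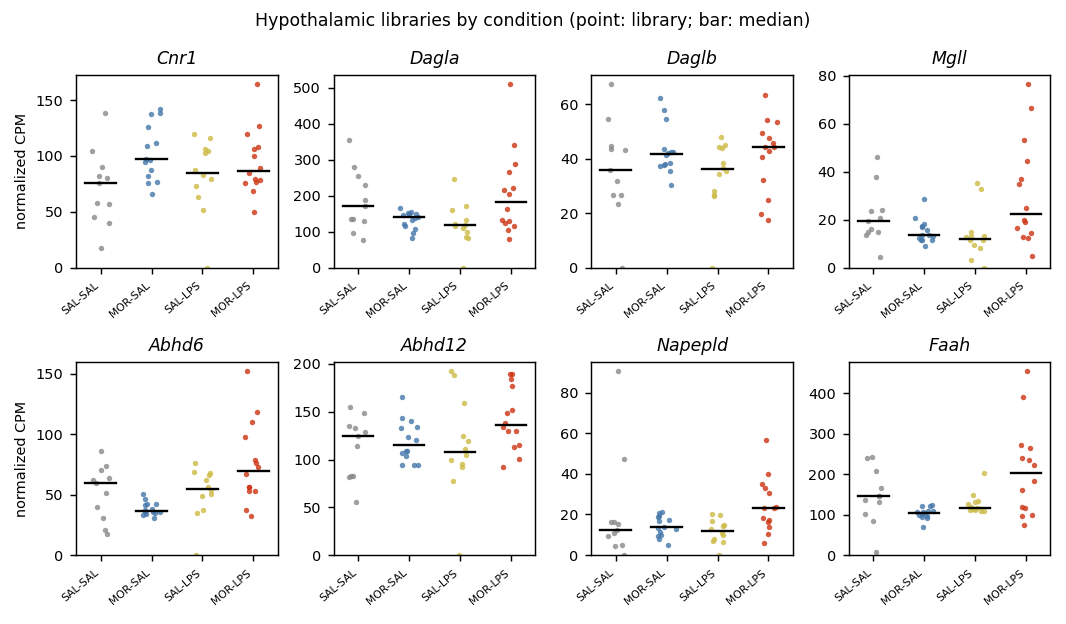
Normalized CPM of each member in the 51 hypothalamic libraries (y axis from 0), by condition on the x axis. Points are libraries and bars are medians. MOR–LPS points of Mgll and Faah reach 76.6 and 455.8, above every MOR–SAL point.

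Thus 3 of the 8 members were called, beside 6.27% of the 28859 genes tested, and the median log2FC of the members was 0.72 against 0.00 over all genes. That share is too high, since the filter on total count admits genes of very low count among which too many are called. With edgeR's filterByExpr filter, which removes such genes, 3.46% of genes were called and the 3 members stayed called (edgeR adjusted p = 0.0334 for Mgll, 0.00251 for Faah and 0.000872 for Abhd6). With the litter as a block, Faah and Abhd6 stayed called and Mgll did not (0.68 ± 0.32, edgeR adjusted p = 0.342). None of the 3 was called in females only (0.91, 0.73 and 0.71 for Mgll, Faah and Abhd6, edgeR adjusted p = 0.243, 0.212 and 0.156) or in limma on log2(CPM + 1) (0.62, 0.72 and 0.76, adjusted p = 0.492, 0.175 and 0.304) and its 2 variants. Mgll also lost its call in males only (edgeR adjusted p = 0.124) and without litter 8, 14 or 16 (edgeR adjusted p = 0.0532, 0.112 and 0.121).

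The cortical markers moved with these values within MOR–LPS. Their summed level was 1.75 to 24.9 CPM in MOR–SAL, 0.93 to 152.0 in SAL–LPS, 0 to 71.5 in SAL–SAL and 6.69 to 327.8 in MOR–LPS, with none of the 3 at a median of 0. The 6 MOR–LPS libraries high in them were the 6 with the most Mgll (34.7 to 76.6, median 48.9), and the other 8 had 4.69 to 24.8 (median 15.6). For Faah the same 6 had 236.1 to 455.8 and the other 8 had 73.5 to 222.9, and for Abhd6 the 2 sets overlapped (37.1 to 152.1, and 32.6 to 118.1). The SAL–LPS libraries high in them, of animals 1-2 and 1-0, held the highest Faah values of SAL–LPS (202.2 and 148.8, the others at most 133.7). Their Mgll was 32.7, second in that group, and 3.32, the lowest value above 0 of the 51 libraries. Without the 8 libraries high in cortical markers the log2FC of Mgll was -0.02 ± 0.29 (edgeR adjusted p = 1.0), that of Faah 0.39 ± 0.20 (edgeR adjusted p = 0.334) and that of Abhd6 0.77 ± 0.21 (edgeR adjusted p = 0.0397). With filterByExpr as well, no member was called, and Abhd6 had 0.79 ± 0.20 (edgeR adjusted p = 0.0548). Summed astrocyte markers were also higher in MOR–LPS (15.7 to 720.3, median 163.1) than in MOR–SAL (14.3 to 43.6, median 25.1). So were oligodendrocyte markers (198.6 to 5521 CPM, median 501.6, against 52.1 to 549.7, median 285.0). In SAL–SAL libraries astrocyte markers ran from 2.30 to 338.0 and oligodendrocyte markers from 90.2 to 6199. In SAL–LPS libraries they ran from 0 to 322.7 and from 134.5 to 2247. The part of these markers in the result was not tested. In bulk nuclei, more nuclei of a type and more RNA per nucleus cannot be told apart.

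**Figure D3:**
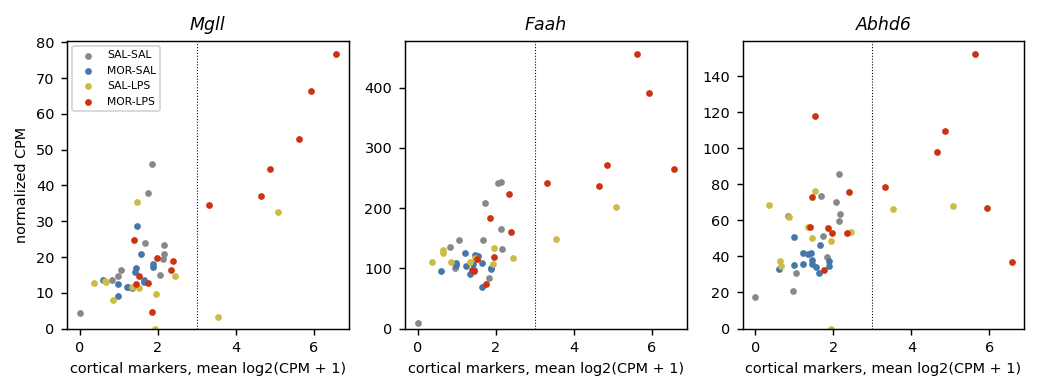
Normalized CPM of Mgll, Faah and Abhd6 (y axes) against the mean log2(CPM + 1) of 3 cortical excitatory markers (x axis) in the 51 hypothalamic libraries, coloured by condition. The dotted line is at 3, and the 6 MOR–LPS libraries to its right hold the highest Mgll values of that group, from 34.7 to 76.6, while some SAL–SAL and SAL–LPS libraries to its left reach into that range.

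**Figure D4:**
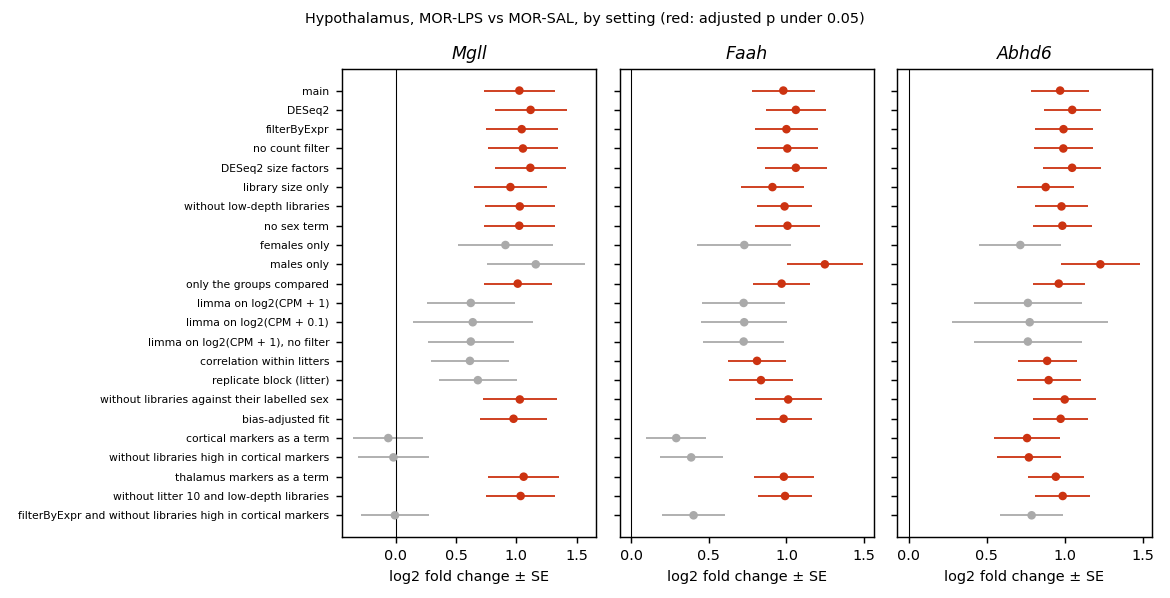
Log2FC ± SE of MOR–LPS against MOR–SAL in the hypothalamus (x axis) for Mgll, Faah and Abhd6 under each setting (y axis), red where the adjusted p is under 0.05. Mgll lies at -0.06, -0.02 and -0.01 in the 3 settings that take the cortical markers into account.

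The interaction, that is the LPS response of morphine-exposed animals minus that of saline-exposed animals, was positive in the hypothalamus for Mgll (1.59 ± 0.44, edgeR adjusted p = 0.0265), Dagla (1.15 ± 0.31, edgeR adjusted p = 0.0231) and Faah (1.15 ± 0.30, edgeR adjusted p = 0.0184), beside 3.80% of all genes. These calls did not hold with filterByExpr, where 0.612% of genes were called (1.62, 1.17 and 1.16, edgeR adjusted p = 0.067, 0.0606 and 0.0523), nor with the litter as a block (1.29, 0.82 and 0.92, edgeR adjusted p = 0.352, 0.335 and 0.271), nor without the libraries high in cortical markers (0.68, 0.66 and 0.68, edgeR adjusted p = 0.498, 0.276 and 0.238). Napepld (1.57 ± 0.49, edgeR adjusted p = 0.0526) and Abhd6 (0.87 ± 0.28, edgeR adjusted p = 0.0617) were just outside the threshold. The SAL–SAL group also held 4 libraries (10-1, 10-3, 5-3 and 3-2) with 3186, 2148, 1584 and 1189 CPM of thalamus markers, where MOR–SAL had at most 1138, and their Dagla (355.7, 280.8, 228.8 and 189.2 CPM) and Faah (241.4, 208.9, 243.3 and 164.9 CPM) were above every MOR–SAL value. SAL–SAL libraries below 1138 CPM of these markers also exceeded every MOR–SAL value, 11-1 and 5-1 in both Dagla (172.3 and 255.5 CPM) and Faah (131.8 and 135.7 CPM), and 9-4 and 1-1 in Faah (146.6 and 146.9 CPM). With the thalamus markers as a term, Mgll stayed called (1.49 ± 0.45, edgeR adjusted p = 0.0481), and Dagla (0.78 ± 0.30, edgeR adjusted p = 0.158) and Faah (0.90 ± 0.31, edgeR adjusted p = 0.0954) did not.

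No member was called in the other hypothalamic contrasts. For MOR–SAL against SAL–SAL (background 1.44%, and 0.929% with filterByExpr), Cnr1 had 0.56 ± 0.19 (edgeR adjusted p = 0.0924), from 66.1 to 142.4 normalized CPM in MOR–SAL (median 97.1) and 17.6 to 138.9 in SAL–SAL (median 75.4). The median log2FC of the members there was -0.49, against 0.07 over all genes, of which 55.3% were above 0. Of the 8 members, 5 were below 0. These were Napepld (-0.59 ± 0.34), Mgll (-0.53 ± 0.31), Faah (-0.51 ± 0.21), Dagla (-0.50 ± 0.22) and Abhd6 (-0.48 ± 0.20), with edgeR adjusted p from 0.178 to 0.397. Over the alternatives Faah ran from -0.67 to -0.05, Dagla from -0.68 to -0.15 and Abhd6 from -0.64 to -0.19. The same MOR–SAL libraries are the reference of MOR–LPS against MOR–SAL and enter the interaction. For MOR–LPS against SAL–LPS (1.03%, and 0.0164%), Mgll had 1.06 ± 0.32 (edgeR adjusted p = 0.0719). For SAL–LPS against SAL–SAL (0.246%, and 0.0765%), the members lay between -0.76 and 0.39, and for females against males (3.45%) between -0.35 and 0.10. At an unadjusted p under 0.05 these 4 contrasts held 4, 5, 2 and 3 of the 8 members, beside 17.3%, 13.9%, 14.0% and 15.6% of all genes.

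No member was called in the hippocampus, PFC or striatum in any of the 6 contrasts. The backgrounds for MOR–SAL against SAL–SAL, MOR–LPS against SAL–LPS, SAL–LPS against SAL–SAL, MOR–LPS against MOR–SAL, the interaction and sex were, for hippocampal libraries, 0.0%, 2.73%, 2.55%, 0.467%, 2.35% and 2.51%. For PFC libraries they were, in the same order, 0.0%, 0.0046%, 0.0%, 0.0184%, 1.78% and 0.709%, and for striatal libraries 0.0%, 0.0%, 0.0128%, 1.39%, 0.00854% and 0.841%. At an unadjusted p under 0.05, 3, 3 and 4 of the members' values in the 3 regions passed over the 6 contrasts, where each contrast has 8, beside 10.3% to 17.5%, 10.1% to 13.2% and 11.2% to 17.8% of all genes. The nearest to the threshold was Abhd12 in the striatum, for MOR–LPS against MOR–SAL (0.38 ± 0.11, edgeR adjusted p = 0.0544), which DESeq2 called (adjusted p = 0.0157).

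**Figure D5:**
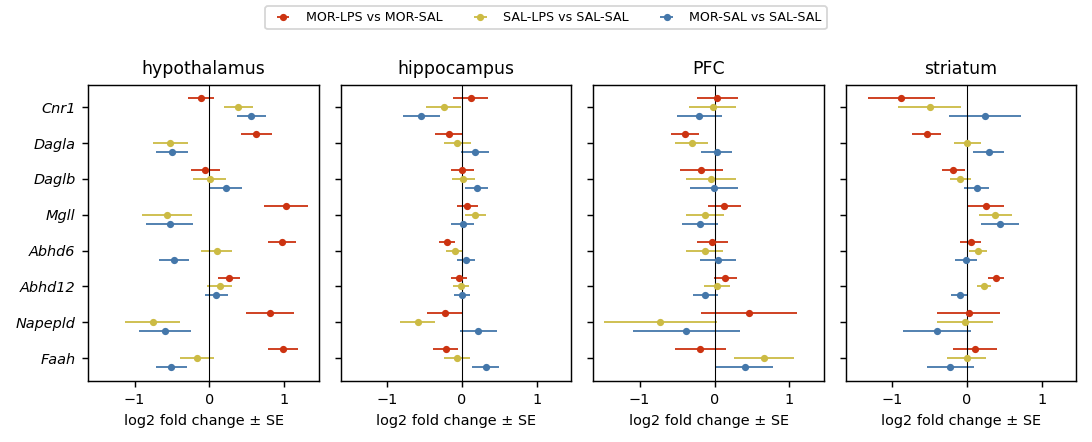
Log2FC ± SE of the 8 members (y axis) in 3 contrasts (colours) and 4 regions (panels, one shared x axis). Mgll, Faah and Abhd6 lie near 1 for MOR–LPS against MOR–SAL in the hypothalamus.

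Whether the MOR–LPS against MOR–SAL difference itself was larger in the hypothalamus than the mean of the other regions was tested in one fit over the libraries of all regions (background 3.06%). It was for Abhd6 (1.01 ± 0.19, edgeR adjusted p = 0.000247), Faah (1.07 ± 0.31, edgeR adjusted p = 0.0287) and Dagla (0.99 ± 0.23, edgeR adjusted p = 0.00389), but not for Mgll (0.86 ± 0.27, edgeR adjusted p = 0.0577). With a correlation within animals in limma, which called 0.246% of all genes, Abhd6 was called (0.89, adjusted p = 0.039) and the other members were not, Dagla with 0.81 (adjusted p = 0.133), Faah with 0.80 (adjusted p = 0.311) and Mgll with 0.43 (adjusted p = 0.76). This test rests on the same hypothalamic MOR–LPS libraries. Without the 8 high in cortical markers (background 0.806%), Abhd6 stayed called (0.79 ± 0.20, edgeR adjusted p = 0.0322), and Faah (0.44 ± 0.34, edgeR adjusted p = 0.698), Dagla (0.42 ± 0.24, edgeR adjusted p = 0.519) and Mgll (-0.24 ± 0.27, edgeR adjusted p = 0.838) were not called. For the interaction (background 1.83%), Mgll (1.61 ± 0.41, edgeR adjusted p = 0.0152) and Dagla (1.43 ± 0.34, edgeR adjusted p = 0.00857) were called. Neither was called with that correlation (background 0.175%, 1.58 and 1.16, limma adjusted p = 0.311 and 0.161), nor without the 8 libraries (background 0.924%, 0.63 and 0.90, edgeR adjusted p = 0.619 and 0.234).

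Of 45 other genes of the pathway in 5 lists, those described here were called in a condition contrast. For MOR–LPS against MOR–SAL 3 of the 41 tested were called in the hypothalamus, beside 6.27% of all genes, and 1 of 40 in the striatum, beside 1.39%. Among 10 genes upstream of 2-arachidonoylglycerol synthesis, the muscarinic receptor gene Chrm1 was higher in hypothalamic MOR–LPS than MOR–SAL (2.50 ± 0.49, edgeR adjusted p = 0.00148). Wasf1, an actin regulator among 10 partners and effectors of CB1, was higher in hypothalamic MOR–LPS than MOR–SAL (1.03 ± 0.23, edgeR adjusted p = 0.00615), and Abhd4, on the anandamide routes, was higher in striatal MOR–LPS than MOR–SAL (1.05 ± 0.28, edgeR adjusted p = 0.0423). These calls of Chrm1, Wasf1 and Abhd4 held with filterByExpr (edgeR adjusted p = 0.00276, 0.00663 and 0.0386). Without the 8 hypothalamic libraries high in cortical markers, Chrm1 (0.72 ± 0.42, edgeR adjusted p = 0.402) and Wasf1 (0.14 ± 0.20, edgeR adjusted p = 0.83) were not called. Gpr119 was called in the hypothalamus with a median of 0 in all 4 groups, and filterByExpr leaves it out.

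Across 200 libraries, after condition and sex means were removed, the genes most like each member in level were, as a description, Syt7 and Camk2a for Dagla (mean r over regions 0.72 and 0.69), Il1rap and Adcy1 for Faah (0.71 and 0.71), Tmem132b and Pitpnm2 for Mgll (0.65 and 0.64), and Sh3d19 and Il1rap for Napepld (0.63 and 0.63). The best values of the other members were 0.50 for Cnr1 (Gpm6b), Daglb (Eif2d) and Abhd12 (Rplp0) and 0.46 for Abhd6 (Tanc1). The points share library depth and nuclear make-up. Among members, Faah and Napepld had the highest mean r (0.60) and Abhd6 and Cnr1 the lowest (-0.43).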

How the data were processed

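Nuclear RNA of NeuN+ nuclei was sequenced, 1 library per animal and region. Per the labels, the authors used Trim Galore 0.6.7, STAR 2.7.10a on mm10, HTSeq 0.12.4 and DESeq2 1.40.2. The authors deposited raw counts of 46403 genes per region and CPM of 46366 genes without mitochondrial genes, and the CPM can be recomputed from the counts. Columns were matched to samples by name.

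Counts were analysed in R 4.3.3 with edgeR 4.0.16 (total count above 10, TMM, conditions and sex as terms, glmQLFit and glmQLFTest), limma 3.58.1 and DESeq2 1.42.0. Adjusted p are Benjamini-Hochberg values over all genes of a region, called under 0.05. Regions were compared in SAL–SAL libraries, of which an animal gave up to 1 per region, over genes above 10 counts in every table.

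The test was checked on simulated hypothalamic counts. It recovered most changed genes, but with the filter on total count it called far more unchanged genes than the threshold allows, nearly all of very low count, while among genes at the members' levels, and with filterByExpr, it kept to the threshold for MOR–LPS against MOR–SAL. The simulated libraries were independent, with no litters, no differences in nuclear make-up and the same dispersion in every group. The check therefore does not cover these features of the real libraries. The planned filter was kept, so its all-gene counts are too high, and filterByExpr values stand beside the hypothalamic calls.

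Members and lists were chosen with earlier results of these data known. Named genes were the 8 members, list genes called in a condition contrast (up to 4 per list and contrast), and the 3 genes most like each member, of which 1 or 2 are printed. Some genes that this rule names are not reported here. The first number of each label was taken as the litter, as the study's sample table writes its identifiers. The labels do not say so and the study's methods count litters in another way, so every litter setting rests on that reading. Animals of one litter in both challenge groups deviated together only in part (hypothalamic r from -0.08 to 0.16 over 6 saline litters and from -0.05 to 0.26 over 9 morphine litters). Separate animals are the replicates, but littermates are not independent. Alternatives were another tool, filter, scaling, sex or set of libraries. Where a library lists 0 for a gene, up to 3 counts remain possible, for counting error only.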

Additional observations from a re-analysis of the deposited data

Results flagged for a closer look

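The LPS response differed between the exposures in the hypothalamus for Mgll (1.59 on the log2 scale), Faah (1.15) and Dagla (1.15), by the interaction test. None of these was called with filterByExpr (1.62, 1.16 and 1.17, edgeR adjusted p = 0.067, 0.0523 and 0.0606).

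In groups of 8 or 10 libraries, 1 library lay far above the rest for Cnr1 in PFC SAL–LPS (161.3 normalized CPM, animal 3-3) and for Abhd12 in the same group (237.3 normalized CPM, animal 11-0). Of 24 sets of values examined (the 8 members in each of the 3 groups of that size) these were 2, and chance flags about 1 in 20. Larger groups were not examined.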

How the results depend on the processing

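The count of members called in hypothalamic MOR–LPS against MOR–SAL, 3 in the report, was 0 in females only, in limma on log2(CPM + 1) with and without a filter and on log2(CPM + 0.1), and 0 with filterByExpr and without the libraries high in cortical markers. It was 1 with the cortical markers as a term or without those libraries. The log2FC of Mgll there was -0.0633, -0.0208 and, with filterByExpr, -0.0079. The interaction count, also 3, was 5 with DESeq2, with its size factors, without low-depth libraries, without the sex term and in the bias-adjusted fit. It was 0 with filterByExpr, in either sex alone, in the 3 limma fits, with a correlation within litters, and in all 3 cortical marker settings, and 1 with thalamus markers as a term or without litter 10 and the low-depth libraries. With the litter as a replicate block it was 0, while that block left 2 members called for MOR–LPS against MOR–SAL and changed no count from 0 elsewhere. Leaving out 1 litter at a time, the interaction count ran from 1 (without litter 10) to 5 and that of MOR–SAL against SAL–SAL, 0 in the report, from 0 to 2. MOR–LPS against SAL–LPS had 1 member (Mgll) with library size only and in the bias-adjusted fit. Striatal MOR–LPS against MOR–SAL had 1 (Abhd12) with DESeq2, library size only, no sex term, the 3 limma fits and the bias-adjusted fit. Uncalled values changed sign for Napepld in SAL–LPS against SAL–SAL (0.19, thalamus markers as a term) and, for females against males, for Abhd12 (0.0946, 0.25 and 0.0946) and Cnr1 (0.12) in limma. Of the uncalled differences between the hypothalamus and the mean of the other regions, that of Mgll in MOR–LPS against MOR–SAL changed sign without the libraries high in cortical markers (-0.2445), and with a correlation within animals so did Cnr1 there (-0.0745) and Daglb and Napepld in the interaction (-0.1831 and -0.1733). Of the 48 tests between regions 29 were called, and 23 to 37 in the alternatives. The marker settings, the bias-adjusted fit, the removal of libraries against their labelled sex and the test between regions were chosen after seeing the data. The cause of these changes was not tested.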
